A study of Mus musculus with 34 samples.

Results

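SEW06315, labelled Maybridge_138_F05 in the data, is a drug-like small molecule with no known target that the screen behind these data classed as an activator of microexon inclusion. Its effect was read in Neuro-2A (N2A) cells, a mouse neuroblastoma line, after 24 h at 2.5 μM in 0.4% DMSO, against N2A cells given the DMSO vehicle for the same time. Members were chosen by label alone, which gave 4 of the 34 RNA-seq libraries of the series: 1 treated library and the 3 DMSO libraries A, B and C. All 4 are from poly(A) RNA of the same cell line, and the labels do not say whether the DMSO libraries came from separate cultures. Splicing was available for each library as percent spliced in (PSI), the share of transcripts that include an exon, retain an intron or use a splice site, whereas gene expression was available as 1 merged RPKM value (read counts scaled for transcript length and library size) for each of 28 conditions. Because the treatment has 1 library, an exact permutation test over these 4 libraries cannot give a one-sided p below 0.25, and none was run. The treated library had 43734131 reads on exon events, fewer than DMSO A (75978445) and DMSO B (66602104) and more than DMSO C (37427027), so rarely covered events had wider error in it and in DMSO C.

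Microexons are exons of at most 27 nt, many of which keep the reading frame and insert a few residues into surfaces of proteins that act in neurite growth, membrane traffic and synapses. Their inclusion in neurons depends on the splicing factors SRRM4 and SRRM3, which act at elements just upstream of the exon, while PTBP1 represses many of them in other cells. N2A cells express Srrm4 and include many microexons in part, so that inclusion can move either way. The second body of results concerns the integrated stress response, in which phosphorylation of the initiation factor eIF2 lowers translation in general, raises translation of the transcription factor ATF4 and, through it, transcription of genes for amino acid synthesis and uptake and of regulators such as Ddit3.

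The microexons that carried the largest differences are shown in their transcripts, so that their length and coding content can be read beside their values. Each line gives 15 bases of the preceding exon, the microexon in capitals and 15 bases of the following exon, as mRNA sense sequence from GENCODE vM21 transcripts. A transcript was accepted where the exon length and both neighbouring intron lengths matched the event, which held for 9 of the 10 named microexons.
Shank2: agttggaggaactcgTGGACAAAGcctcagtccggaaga
Snx14: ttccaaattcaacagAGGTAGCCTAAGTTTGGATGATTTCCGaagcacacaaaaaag
Slc38a10: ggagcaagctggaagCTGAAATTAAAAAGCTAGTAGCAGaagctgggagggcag
Pacsin2: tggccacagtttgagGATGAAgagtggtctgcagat
Vav2: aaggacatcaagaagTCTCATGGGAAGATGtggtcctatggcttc
Lass6: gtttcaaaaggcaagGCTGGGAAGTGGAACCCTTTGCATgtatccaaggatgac
Ergic3: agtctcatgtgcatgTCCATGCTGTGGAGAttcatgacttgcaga
Cdk5rap2: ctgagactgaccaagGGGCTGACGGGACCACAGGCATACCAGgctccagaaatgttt
Mllt4: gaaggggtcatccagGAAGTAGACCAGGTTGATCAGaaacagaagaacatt
The first 7 had higher inclusion with SEW06315 and the last 2 lower.

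With SEW06315, 36 of 591 measured microexons, in 36 genes, were included more (6.09%) and 2 were included less (0.338%). A call needed a treated PSI 10 or more away from the DMSO mean and, given the reads, a posterior above 0.95 that the difference lay in that direction. The 36 differences ran from 10.14 to 26.01 PSI with a median of 14.60, and 35 of the 36 treated values lay above every DMSO library that passed the coverage filter. Set against 2 DMSO libraries at a time, the treated library gave 36 to 38 microexons included more, where a DMSO library against the other 2 gave 7 to 10. Microexons included less numbered 3 to 4 in the treated library and 8 to 9 in the DMSO libraries. Of the 36, 35 had a DMSO mean between 10 and 90 PSI and 33 had a length divisible by 3, a share of 91.7% beside 91.2% of all 160 microexons with such a DMSO mean.

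The 9-nt microexon of Shank2, which encodes a scaffold of the excitatory postsynapse, had the largest difference. Its PSI was 58.33 in DMSO A, 64.10 in DMSO B, 37.62 in DMSO C and 79.36 in the treated library, a difference of 26.01. The treated value was the highest of the 4, although it rested on 27 reads and its 95% interval from those reads (exact Clopper-Pearson, counting error only) ran from 59.52 to 92.40, into the DMSO range. This exon lies at chr7:151582543-151582551 (mm9, as are all event positions), between introns of 206 and 1594 nt.

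Snx14, a sorting nexin of the endolysosomal system, carried a 27-nt microexon at 51.65, 46.86 and 42.38 PSI in DMSO A, B and C and at 69.14 with SEW06315. The 24-nt microexon of Slc38a10, an amino acid transporter, stood at 37.12, 40.60 and 47.02 PSI in DMSO and at 63.61 in the treated library. In both, the treated value was clear of the DMSO range, and its 95% interval (61.79 to 75.84 for Snx14, 51.94 to 74.22 for Slc38a10) began above the highest DMSO library. A 10-nt microexon of Sypl, which encodes a relative of synaptophysin, was measured at 59.97, 58.98 and 62.86 PSI in DMSO and 81.25 with SEW06315; its length is not divisible by 3.

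Of these 8, Pacsin2 and Vav2 had the narrowest intervals. The 6-nt microexon of Pacsin2, a membrane-bending F-BAR protein, had 37.50, 34.60 and 40.50 PSI in DMSO and 56.85 with SEW06315, with 1232 reads behind the treated value and an interval of 54.03 to 59.64. The 15-nt microexon of Vav2, a guanine nucleotide exchange factor, had 74.11, 76.83 and 72.98 PSI in DMSO and 92.29 with SEW06315, the highest of all 34 libraries (the next was 92.16). The DMSO libraries of both exons lay within a few PSI of each other and far from the treated value.

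The 24-nt microexon of Lass6 (ceramide synthase 6, now Cers6) stood at 37.53, 37.02 and 24.58 PSI in DMSO and at 50.59 with SEW06315. Ergic3, a protein of the compartment between the endoplasmic reticulum and the Golgi, had its 15-nt microexon at 33.86, 39.75 and 42.01 PSI in DMSO and at 55.91 in the treated library. Called microexons of E2f7, Rpgrip1l and Atl2 differed by 25.37, 20.68 and 19.85 PSI, more than several of these 8. They passed in only 2 DMSO libraries and so were not among the 8. Outside these 8, the 9-nt exon of Psap, the precursor of the lysosomal saposins, was the most deeply read of all those called: 45.70, 44.90 and 45.77 PSI in DMSO and 59.95 with SEW06315, with 7349 reads and an interval of 58.82 to 61.07. It is named here after its values were seen.

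Both microexons included less were 21 nt or longer. Cdk5rap2, a centrosomal protein, had its 27-nt microexon at 32.31, 25.98 and 28.08 PSI in DMSO and at 14.83 with SEW06315. Mllt4 (afadin, now Afdn), an adherens junction protein, had its 21-nt microexon at 56.09, 64.46 and 65.73 PSI in DMSO and at 51.06 with SEW06315. Both treated values lay below all 3 DMSO libraries, and without DMSO A, B or C in turn the Mllt4 difference ran from -14.03 to -9.21 PSI, and it stayed under 10 without DMSO B or without DMSO C.

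**Figure D1:**
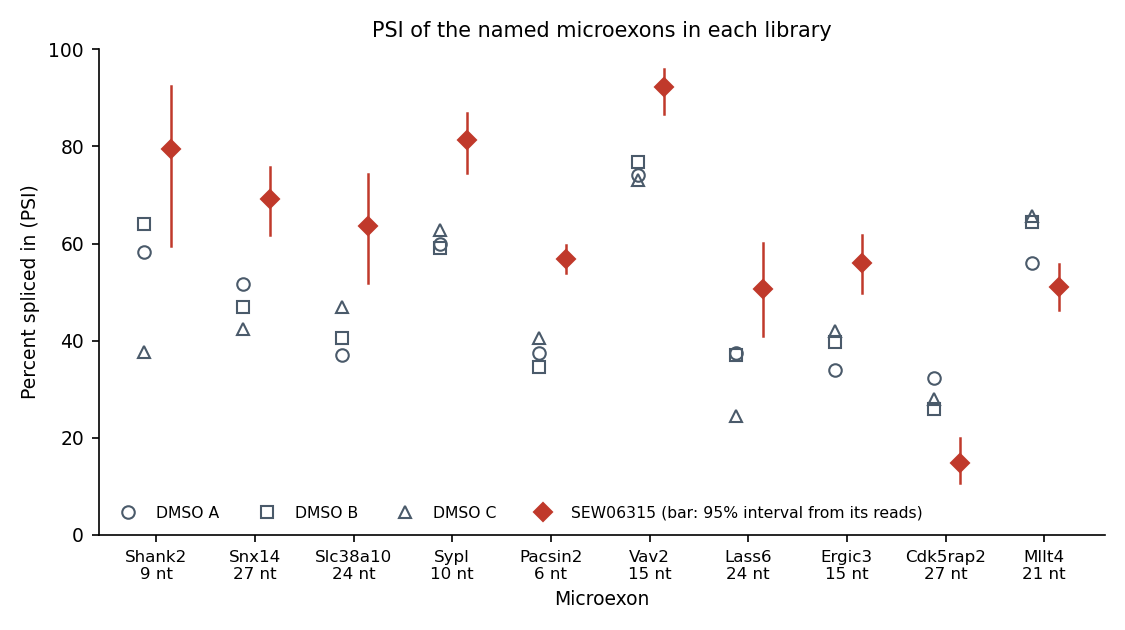
PSI (y axis, percent) of the 10 named microexons in DMSO A, B and C (open symbols) and in the SEW06315 library (filled diamonds, with the 95% Clopper-Pearson interval of its reads as a bar). The first 8 treated values lie above all 3 DMSO libraries and the last 2 below.

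The share of exons included more changed with exon length. It was 3.73% of 161 exons of 3 to 9 nt, 11.4% of 149 exons of 10 to 15 nt, 4.63% of 281 exons of 16 to 27 nt and 1.66% of 2233 exons of 28 to 50 nt. Among longer exons it was 0.579% for 51 to 100 nt, 0.403% for 101 to 200 nt and 0.335% above 200 nt. Exons of 10 to 15 nt had 17 called higher and 0 lower, against 122 higher and 116 lower at 101 to 200 nt. An exon near 0 PSI can only gain and one near 100 can only lose. Among those with a DMSO mean between 10 and 90, 17 of 40 exons of 10 to 15 nt were included more (42.5%). The numbers were 6 of 26 at 3 to 9 nt (23.1%) and 12 of 94 at 16 to 27 nt (12.8%). They were 36 of 260 at 28 to 50 nt (13.8%) and 116 of 1128 at 101 to 200 nt (10.3%). In this range the share at 16 to 27 nt was thus not above that at 28 to 50 nt. No test of the difference between lengths was run, since exons of the same libraries are not replicates.

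**Figure D2:**
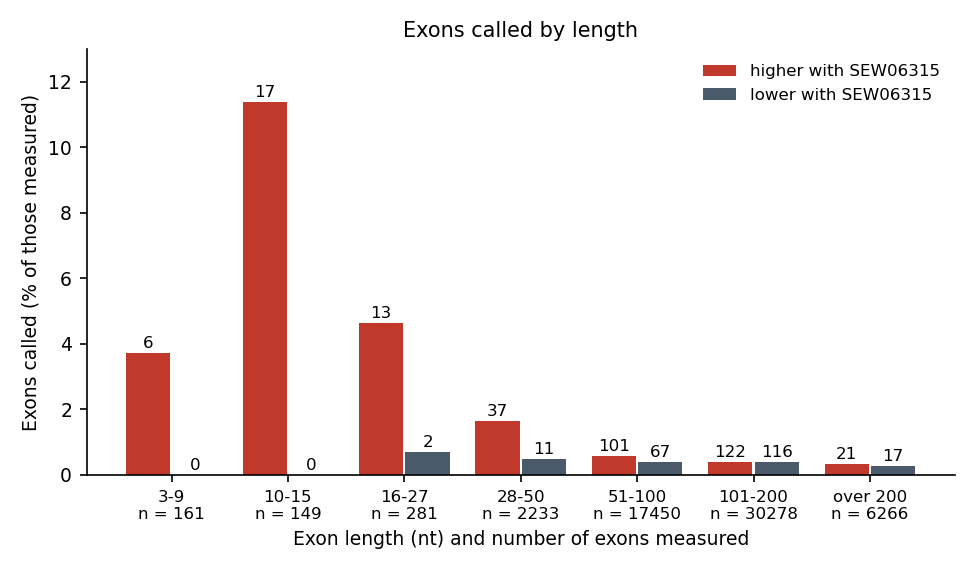
Percent of measured exons called (y axis) by exon length in nt (x axis, with the number measured), higher in red and lower in grey, with the number called above each bar. The share included more was 11.4% at 10 to 15 nt and 0.335% above 200 nt.

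The shift was not limited to the called microexons. Over 142 microexons with a DMSO mean of 10 to 90 PSI that were measured in all 4 libraries, the treated library was above the DMSO mean in 104 (73.2%), with a median difference of 3.78 PSI. Each DMSO library against the mean of the other 2 gave a median between -0.28 and 0.49 PSI. The mean PSI over the 111 microexons measured in all 34 libraries was 52.75, 52.39 and 52.72 in DMSO A, B and C and 57.45 in the treated library, which ranked 15 of 34. The other libraries ran from 34.35 to 61.79, at the doses chosen for each compound, which differ. Thus the treated library was clear of the 3 DMSO libraries, but only 2 of its 36 microexons included more, in Vav2 and E2f7, reached the highest value of all libraries. The 24-nt microexon of the cell-cycle repressor gene E2f7 passed in 2 DMSO libraries, at 8.56 and 7.67 PSI, and was at 33.48 PSI with SEW06315.

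The study had chosen 16 genes for RT-PCR of their microexons or short neural exons, so their choice is not independent of the screen. In the RNA-seq, 15 of them had exons of at most 50 nt that passed the filter, 20 exons in all. The treated PSI was above all 3 DMSO libraries in 15 of the 20, with a median difference of 9.62, and 10 were called higher and 0 lower. Exons of like length were often called higher too. With a DMSO mean of 10 to 90, these were 35 of 160 microexons and 36 of 260 exons of 28 to 50 nt (13.8%). The 20 exons were kept to a somewhat wider range of DMSO means. The 21-nt microexon of Mef2d, a muscle and neuronal transcription factor whose microexon served in the screening reporter, was at 89.54, 88.72 and 88.68 PSI in DMSO and at 97.00 with SEW06315. This treated value was above the DMSO range and second of 34 libraries, but the difference of 8.02 stayed under the limit of 10. Besides Shank2, Snx14 and Ergic3, the called exons were a 12-nt exon of the adhesion receptor Lphn2 (DMSO mean 16.83, treated 33.24), 24-nt and 48-nt exons of the microtubule-binding Clasp2 (37.22 and 52.90) and the hydroxylase gene Asph (26.29 and 40.45), a 12-nt exon of the chromatin reader Zmynd8 (51.61 and 65.32), a 45-nt exon of the ubiquitin ligase Mgrn1 (19.86 and 32.77), a 12-nt exon of the adhesion molecule L1cam (40.70 and 52.94) and a 36-nt exon of the palmitoyltransferase Zdhhc20 (33.89 and 44.48), whose difference was 8.12 without DMSO A. The 21-nt exon of the kinase Mast2 was within the DMSO range (47.05, 48.87 and 33.34 PSI in DMSO, 42.71 treated), as were an exon of Pus7 and a 45-nt exon of Asph.

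Of 56227 longer cassette exons, 281 were included more (0.5%) and 211 less (0.375%). Against pairs of DMSO libraries, the treated library gave 338 to 371 exons included more beside 210 to 253 for a DMSO library, and 234 to 242 included less beside 270 to 324. Hence the excess over DMSO was in the direction of inclusion. Over 2478 cassette exons between 10 and 90 PSI in DMSO the median difference was 1.94 PSI and 63.7% were above the DMSO mean, where the DMSO libraries gave medians of 0.42 to 0.48.

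Among cassette exons, the largest gain was in Slain1. A 150-nt exon of this gene, which promotes microtubule growth, was at 36.64, 39.24 and 34.78 PSI in DMSO and at 76.67 with SEW06315. A 108-nt exon of Mical2, an enzyme that oxidises actin, was at 36.00, 32.14 and 27.87 PSI in DMSO and at 69.81 with SEW06315, and a 42-nt exon of Ksr1, a scaffold of the MAP kinase cascade, at 43.55, 33.33 and 36.80 PSI and at 68.38. In each of the 3, the treated library was the highest of all libraries in which the exon passed. Further gains were a 938-nt exon of 2010111I01Rik (51.56, 68.52 and 78.46 in DMSO, 100 treated), a 318-nt exon of the non-coding RNA gene Pvt1 (62.09, 50.54 and 55.20, against 83.49) and a 118-nt exon of the zinc finger gene Zfp558 (54.93, 43.90 and 88.24, against 91.30), where DMSO C was close to the treated value.

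The exons with the largest losses were for the most part well included in DMSO. A 170-nt exon of Pkd1, the polycystin-1 gene, was at 94.50, 81.61 and 100 PSI in DMSO and at 55.26 with SEW06315. A 135-nt exon of the cytokine receptor kinase gene Jak2 was at 84.86, 71.85 and 88.24 PSI in DMSO and at 53.10 with SEW06315, the lowest of 34 libraries. A 128-nt exon of the lipid transporter gene Abca7 was at 83.09, 83.01 and 87.20 PSI in DMSO and at 61.17 treated, also the lowest of 34. The others were a 196-nt exon of Zfp446 (DMSO mean 92.87, treated 64.49), a 55-nt exon of the ferredoxin gene Fdx1l (71.97 and 44.26) and a 224-nt exon of the transcription factor gene Tcf3 (59.78 and 36.93). Of the 211 exons included less, 115 had a DMSO mean above 90 PSI and none of the 281 included more did, since an exon above 90 cannot gain 10.

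More introns were called retained more than retained less. Of 86113 introns measured, 466 in 384 genes were retained more (0.541%) and 71 less (0.0824%). Of all measured, 84491 had a DMSO mean below 10 and so could not fall by 10, and 296 of the 466 began there. Of the 1578 between 10 and 90 in DMSO, 170 were retained more and 66 less. Of 1124 such introns measured in all 4 libraries, 54.0% were above the DMSO mean, where the DMSO libraries gave 38.4% to 40.4%. Against pairs of DMSO libraries the treated library gave 456 to 528 introns retained more beside 161 to 257 for a DMSO library. For introns retained less the numbers were 103 to 120 and 104 to 232. By library, DMSO A gave 161 retained more and 232 less, DMSO B 196 and 186, and DMSO C, the least read of the 4, 257 and 104. Whether depth had a part in these counts was not tested. The introns retained more started from low retention, with a median of 6.32 in DMSO and 22.58 with SEW06315, and rested on few reads, with a median of 24 in the least covered of the 4 libraries, so that only 213 of the 466 passed a posterior of 0.99. The mean retention over the 5224 introns measured in all 34 libraries was 3.66, 3.63 and 3.84 in DMSO and 3.93 with SEW06315, which is above all 3 and rank 7 of 34, but closer to DMSO C than DMSO C is to DMSO B.

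The 4052-nt intron of D14Abb1e was at 15.79, 22.03 and 21.21 PSI in DMSO and at 64.71 with SEW06315, and the 70-nt intron of C330006K01Rik at 19.46, 20.41 and 21.74 and at 56.36. Both treated values were the highest of all libraries in which the intron passed. A 78-nt intron of the centrosomal gene Lrrc45 was at 18.70, 6.67 and 14.89 PSI in DMSO and at 51.35 with SEW06315. The other named introns were a 90-nt intron of 9430015G10Rik (DMSO mean 63.69, treated 100) and a 405-nt intron of Rgl3, an exchange factor for Ral (46.88 and 81.25). Retention recurred within genes: 62 of the 384 genes had 2 or more such introns and 13 had 3 or more. Ppox, the protoporphyrinogen oxidase of heme synthesis, had 5 of 8 measured introns retained more and 1 retained less, Fam116b had 5 of 15 and Wdr90 5 of 32. Of introns retained less, a 995-nt intron of Spna2 (alpha-II spectrin) was at 85.29, 100 and 81.53 PSI in DMSO and at 53.02 with SEW06315, and a 246-nt intron of Zfp426 at 59.78, 71.20 and 60.61 and at 33.86. A 719-nt intron of Icosl, a ligand of an immune costimulator, was at 9.22, 33.09 and 25.88 PSI in DMSO and at 0.00 with 33.5 reads.

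**Figure D3:**
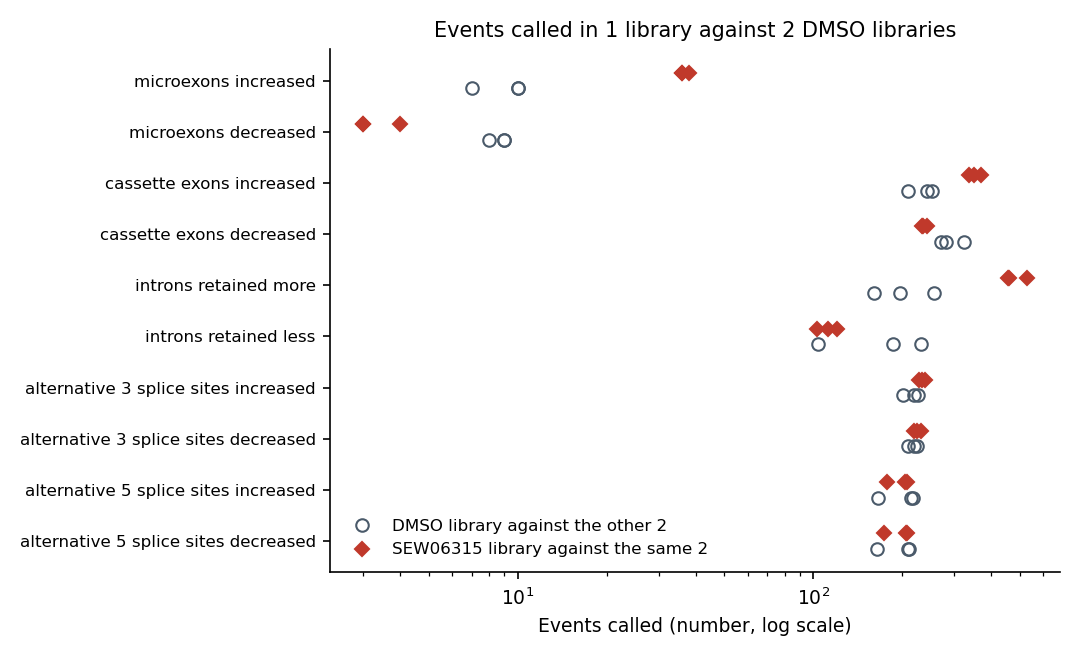
Number of events called (x axis, log scale) in each class and direction for 1 library against 2 DMSO libraries, the SEW06315 library in filled diamonds and the DMSO library left out of each pair in open circles. The sets are apart for microexons, for cassette exons and for introns retained more. They overlap for introns retained less and for alternative splice sites, except 3 splice sites used more, where 227 and 229 meet without overlap.

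Alternative splice sites gave nearly as many calls among DMSO libraries as with SEW06315. Of 29513 alternative 3 splice sites, 208 were used more (0.705%) and 199 less (0.674%); against pairs of DMSO libraries the treated library gave 229 to 240 used more, beside 201 to 227. Of 21477 alternative 5 splice sites, 172 were used more (0.801%) and 175 less (0.815%), and against pairs 178 to 208 were used more, beside 166 to 217. The sites with the largest gains were 3 splice sites in Cyp4f16 (38.25, 39.33 and 0.00 PSI in DMSO, 70.23 treated), in Pigh (2.80, 7.23 and 0.00, against 37.93) and in 4932438A13Rik (29.49, 44.93 and 24.98, against 64.15), and 5 splice sites in Eif4enif1 (28.54, 35.62 and 47.22, against 73.58), A4galt (52.94, 55.00 and 48.65, against 88.57) and Plcb3 (50.58, 55.97 and 62.23, against 92.40). For Pigh and Plcb3, the treated value was the highest of all 34 libraries.

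None of the measured regulators of these exons passed 2-fold in expression. Srrm4 was at 10.42 RPKM in DMSO and 12.29 with SEW06315, a log2 ratio of 0.23, and Srrm3 was at 18.49 and 15.77 (-0.22). Ptbp1 was at 476.41 and 390.26 RPKM (log2 ratio -0.29), Rbfox2 at 56.52 and 60.48 (0.10), Qk at 64.97 and 63.15 (-0.04) and Srsf11, which acts with SRRM4 at microexons, at 104.49 and 106.99 (0.03). Rbm38, which encodes an RNA-binding protein, was at 40.62 and 26.14 RPKM (-0.63), rank 26 of 28 conditions. All log2 ratios are of RPKM plus 0.5, and their median over the 9634 genes above 5 RPKM was -0.14, which the values of single genes include. Of the 29 neural splicing regulators above 5 RPKM none differed more than 2-fold. Over all genes above 5 RPKM, 1.89% were more than 2-fold higher and 0.82% lower, so a count of 0 in a list of this size is near the share of all genes. Their ratios ran from -0.93 (Celf3, 105.11 to 55.05 RPKM) to 0.23 (Srrm4). None of 31 SR and hnRNP proteins (-0.51 for Hnrnph2 to 0.07 for Hnrnph3), 8 CLK, SRPK and DYRK kinases (-0.35 for Dyrk2 to 0.31 for Clk4) or 43 core spliceosome genes (-0.77 for Sf3b5 to 0.16 for Rbm39) passed 2-fold.

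Of the splicing events in these 4 lists of regulators, 3 of 577 cassette exons (0.52%, against 0.875% of all cassette exons in either direction) and 2 of 797 introns (0.251%, against 0.624%) were called, which is not above the share of all events. They are named here as all that were called in these classes. The 73-nt exon of Rbm39, a splicing factor related to U2AF, was at 6.02, 6.63 and 6.38 PSI in DMSO and at 18.52 with SEW06315 (1555 reads, interval 16.62 to 20.54), the highest of 34 libraries, the others being between 0.38 and 10.94. A 53-nt exon of Rbfox1 was at 30.87, 39.78 and 23.90 PSI in DMSO and at 15.80 treated, and a 127-nt exon of Hnrnph1 at 50.32, 33.33 and 43.48 and at 57.66. Introns of Tial1 (1.92, 2.17 and 2.63 PSI in DMSO, 23.08 treated) and of the splicing kinase gene Clk2 (36.04, 25.63 and 25.49, against 40.40) were retained more. The median log2 ratio of the 30 genes above 5 RPKM with a microexon included more was -0.14, beside -0.11 for all 456 genes with a measured microexon. Of the 30, 0 differed more than 2-fold, beside 3 of the 456, so the count says little about the 30.

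In gene expression, 182 of the 9634 genes were more than 2-fold higher with SEW06315 (1.89%) and 79 more than 2-fold lower (0.82%). The direction of this excess was not the same at every fold, since past 1.5-fold 387 were higher and 453 lower. These ratios include the median of all genes, -0.14. Centred on it, 226 genes were higher and 60 lower past 2-fold, and centred counts past 1.5-fold were not made. There is 1 RPKM value per condition, so these are counts past a fold, with no replicate check. Among 9094 protein-coding genes, 107 were higher (1.18%) and 35 lower (0.385%); of the rest, 55 of the higher and 29 of the lower genes were small RNAs, which poly(A) libraries capture poorly. Of the 107 coding genes, 27 were above 4-fold, and in 78 the treated condition was the highest of all 28. Over all 9094 coding genes the treated condition was the highest in 349, and the 107 were picked for being higher in it.

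The integrated stress response was the gene list with the highest median. Of its 26 genes, 24 were above 5 RPKM, and all 24 had a ratio above the median of all genes. The list median was 0.92, which is 1.06 above that of all genes, and 11 genes were more than 2-fold higher and 0 lower, in a table where 1.89% of genes were. In 18 of the 24, the treated condition was the highest of all 28, as it was in 349 of the 9094 protein-coding genes above 5 RPKM. The list was chosen with earlier results of these data known, so the count describes it and is no independent evidence.

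Transcription factors and their regulators showed the range within the list. Ddit3, which encodes the pro-apoptotic factor CHOP, was at 26.69 RPKM in DMSO and 140.41 with SEW06315 (log2 ratio 2.37), while the highest of the other conditions had 62.62. Trib3, a pseudokinase that restrains ATF4, was at 18.11 and 88.19 RPKM (2.25), and Ppp1r15a, which directs removal of the phosphate from eIF2, at 16.25 and 84.50 (2.34). Atf4 itself was at 309.01 and 505.20 RPKM (0.71), Atf5 at 20.62 and 36.22 (0.80), Cebpg, a binding partner of ATF4, at 17.34 and 46.21 (1.39), and Nupr1, a stress-induced chromatin protein, at 77.04 and 201.88 (1.38). Atf3, held in the list of immediate early genes, was at 4.37 and 16.79 (1.83). Cebpb reached only 3.14 RPKM and Vldlr 0.02, under the limit of 5.

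Genes of amino acid synthesis and uptake spanned a wider range. Cth, which makes cysteine from cystathionine, had the largest ratio of the list, at 17.02 RPKM in DMSO and 101.23 with SEW06315 (2.54), and Slc7a11, the cystine importer, was at 4.84 and 26.98 (2.36). The arginine transporter Slc7a3 was at 36.46 and 95.35 RPKM (1.38) and Psph, the last enzyme of serine synthesis, at 93.14 and 210.63 (1.17). The glutathione-degrading Chac1 was at 35.60 and 73.94 (1.04). Phgdh, the first enzyme of serine synthesis, was at 183.49 and 320.87 RPKM (0.81), whereas Asns, asparagine synthetase, was at 548.32 and 730.65 (0.41), Mthfd2 of the mitochondrial folate cycle at 208.24 and 243.85 (0.23) and Psat1 at 357.46 and 397.79 (0.15). The mitochondrial folate enzyme gene Aldh1l2, outside the list and named after its value was seen, was at 21.61 and 75.68 RPKM (1.79).

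Promoters of this list were searched for TGATGNAA, the core of the composite element bound by ATF4 with C/EBP partners, on both strands of the window from 250 bases before to 50 after each gene start (RefSeq, GRCm38.p6). Of 23 genes with a promoter in the table, 7 held it (30.4%), as did 4 of the 9 matched genes above 2-fold (44.4%), against 4.51% of all 27025 genes. The list was assembled from known targets of this pathway, so its share describes the list, and a match is a run of letters and not a measured binding site. For the 4 genes above 2-fold, the 76 to 107 bases of the window around the match are shown as the gene's own strand, with each match in capitals; TTGCATCA and TTACATCA are matches on the opposite strand.
Slc7a11: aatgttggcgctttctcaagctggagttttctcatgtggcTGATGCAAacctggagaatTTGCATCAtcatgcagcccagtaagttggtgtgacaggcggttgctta
Trib3: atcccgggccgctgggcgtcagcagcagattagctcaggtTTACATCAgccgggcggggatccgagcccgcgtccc
Nupr1: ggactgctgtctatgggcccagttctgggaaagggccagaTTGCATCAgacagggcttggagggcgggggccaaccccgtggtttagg
Chac1: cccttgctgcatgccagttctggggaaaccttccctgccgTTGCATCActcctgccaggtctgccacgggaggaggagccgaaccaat
They lie at chr3:50443613-50443719 (minus strand) for Slc7a11, chr2:152344011-152344086 (minus) for Trib3, chr7:126625533-126625620 (minus) for Nupr1 and chr2:119351009-119351096 (plus) for Chac1. The other 3 genes with a match, Asns, Pck2 and Vldlr, were not above 2-fold.

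The lists of other stress responses had lower medians. Of 17 genes of the unfolded protein response above 5 RPKM, none passed 2-fold, 5 lay above the median of all genes, and the median of -0.30 was 0.16 below that of all genes. The chaperones of the endoplasmic reticulum were below their DMSO level, with Hspa5 (BiP) at 296.09 and 262.96 RPKM, Hsp90b1 at 476.40 and 354.39 and Sdf2l1 at 21.13 and 12.60 (log2 ratio -0.72, the lowest of all 28 conditions). These values are not centred on the median log2 ratio of all genes (-0.14), and the fall of Hspa5 was close to that median. Within the same list the degradation genes Herpud1 (71.63 and 124.60 RPKM, 0.79) and Sel1l (22.55 and 33.30, 0.55), the co-chaperone Dnajb9 (13.57 and 22.22, 0.69) and the transcription factor Xbp1 (39.94 and 50.61, 0.34) were higher, although none by 2-fold. Atf6, outside the list and named after its value was seen, was at 13.66 and 28.02 RPKM (1.01). Heat shock genes had a median of -0.30 over 16 genes, from -0.70 for Bag3 (61.91 and 37.93 RPKM) to 0.00 for Chordc1. The oxidative response to NRF2 had a median of -0.07 over 19 genes and 1 gene above 2-fold, Slc7a11, which the stress response list also holds; its lowest was Prdx1 (-0.43).

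Genes of sterol synthesis were higher as a list, though few passed 2-fold. All 24 above 5 RPKM had ratios above the median of all genes, the list median was 0.55 (0.69 above that of all genes), 2 were more than 2-fold higher and 0 lower, and in 11 the treated condition was the highest of 28. Over all 9094 coding genes above 5 RPKM, the treated condition was the highest in 349. Msmo1, which removes methyl groups from lanosterol products, was at 80.08 RPKM in DMSO and 177.04 with SEW06315 (log2 ratio 1.14), and Lss, which makes lanosterol, at 46.51 and 101.99 (1.12). Fdps was at 121.43 and 231.49 RPKM (0.93), and Insig1, which holds back sterol-regulated transcription, at 48.79 and 87.51 (0.84). The regulator gene Srebf2 was at 109.28 and 110.54 (0.02), and Ebp had the lowest ratio (-0.06). Fatty acid synthesis had a median of 0.26 over 11 genes, from -0.03 for Elovl5 to 0.98 for Acss2 (14.93 and 30.02 RPKM), and none passed 2-fold.

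Other lists held 1 to 3 genes past 2-fold, in a table where 1.89% of genes were higher by that much. Among p53 targets, 3 of 14 were more than 2-fold higher: Gdf15 (5.43 and 16.43 RPKM), Cdkn1a (11.55 and 28.07) and Bbc3 (2.84 and 6.35), while the list median was -0.09 and Ccng1 had the lowest ratio (-0.49). Of 15 hypoxia genes, Ero1l (34.82 and 81.05 RPKM) and Vegfa (41.90 and 89.53) were more than 2-fold higher at a list median of -0.06, and Ldha was at -0.49. As background, Gdf15, Ero1l, Vegfa and Atf3 are also known as targets of ATF4 or CHOP. Atf3 was the 1 gene of 10 immediate early genes above 2-fold, and Junb had the lowest ratio there (-0.74). None of 14 MAPK feedback genes (-0.87 for Etv1 to 0.41 for Etv5), 4 metal response genes (-0.25 for Mt3 to 0.21 for Slc30a1), 9 iron response genes (-0.55 for Steap3 to 0.32 for Eif4ebp1), 3 aryl hydrocarbon receptor targets (-0.36 for Nqo1 to 0.06 for Tiparp) or 6 xenobiotic efflux and conjugation genes (-0.24 for Abcb1b to 0.11 for Ephx1) passed 2-fold.

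Lists of general cell function held no gene past 2-fold, which is near the share of all genes for lists of this size, and most had medians below that of all genes. Oxidative phosphorylation had 2 of 29 genes above the median of all genes, and tubulins with the neuronal cytoskeleton 3 of 17. Cell cycle and replication had a median of -0.25 over 31 genes (-0.68 for Ccnb2 to 0.16 for Mki67), cytosolic ribosomal proteins -0.20 over 32 (-0.68 for Rpl13 to -0.01 for Rps9), oxidative phosphorylation -0.26 over 29 (-0.94 for Atp5b to 0.00 for Uqcrc2) and tubulins with the neuronal cytoskeleton -0.33 over 17 (-0.48 for Tubb4b to 0.39 for Map1b). The 11 histone deacetylases had a median of -0.32 (-0.57 for Hdac10 to 0.53 for Hdac4), the 12 P-TEFb and BET genes -0.15 (-0.47 for Hexim1 to 0.19 for Mepce), and the 13 genes of the RT-PCR panel -0.14 (-0.39 for Trappc9 to 0.39 for L1cam).

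**Figure D4:**
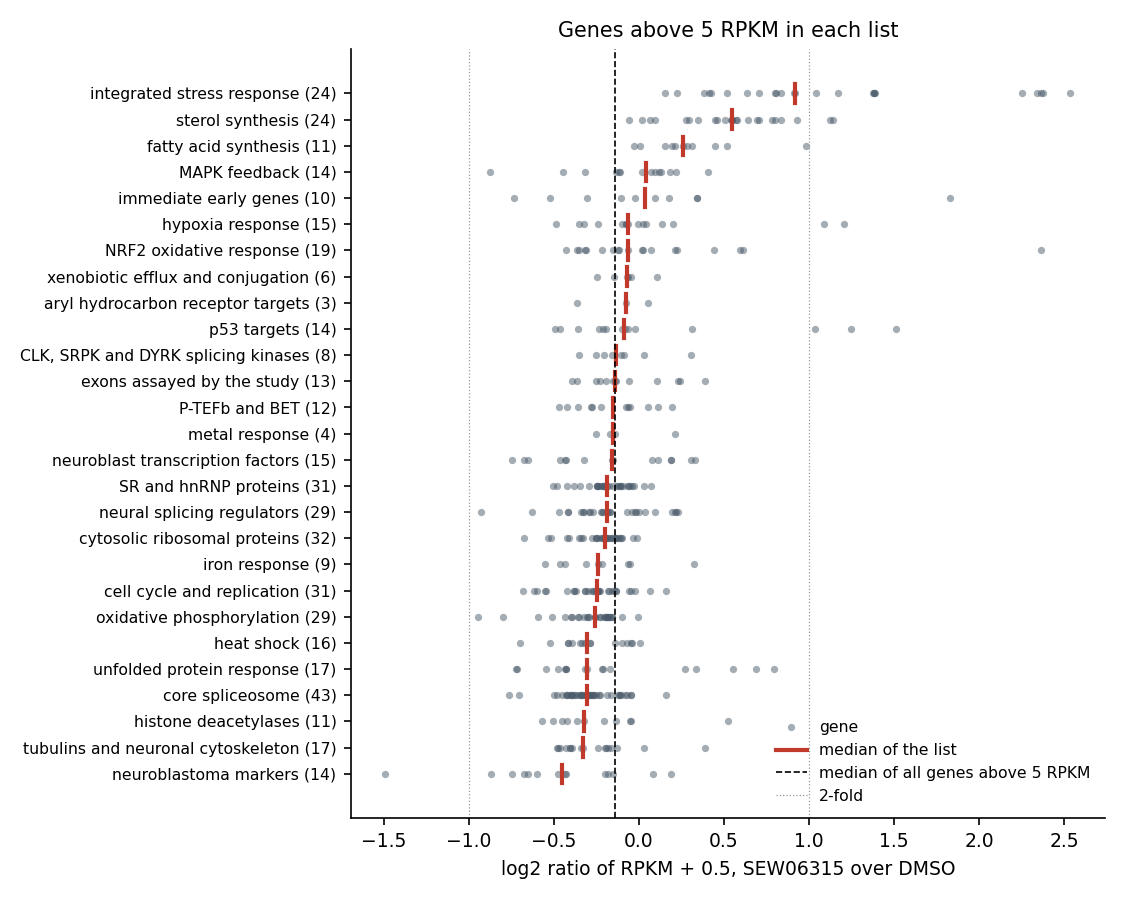
Log2 ratio of RPKM plus 0.5, SEW06315 over DMSO (x axis), for each gene above 5 RPKM (points) in each list (rows, with the number of genes), the median of each list (red bars) and the median of all genes (dashed line, -0.14). Integrated stress response (0.92) and sterol synthesis (0.55) have the highest medians and neuroblastoma markers (-0.45) the lowest.

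The genes with the largest rises were mostly near silent in DMSO. Car6, a secreted carbonic anhydrase, was at 0.66 RPKM in DMSO and 15.33 with SEW06315 (log2 ratio 3.77), Dock3, a neuronal exchange factor for Rac, at 0.15 and 7.49 (3.62), and Cox6a2, the muscle form of a cytochrome oxidase subunit, at 2.08 and 26.06 (3.36). For these low genes the ratio depends on the pseudocount: with 0.1 in place of 0.5 RPKM it was 4.34 for Car6 and 4.92 for Dock3. Stard5, a lipid-transfer protein that binds sterols and bile acids, was at 8.82 and 69.18 RPKM (2.90), and Nxf7, of the mRNA export factor family, at 25.47 and 156.58 (2.60). The remaining large rises were Fam129a (1.51 and 17.34), an eIF2-pathway target also called Niban, Trim66 (2.21 and 21.52), Cdsn (0.37 and 6.20) and Akr1b7 (0.32 and 5.16). In all of these, and in Cth, the treated condition was the highest of 28. In 12 coding genes the treated condition was more than 2-fold above every other condition: Car6, Cdsn, Akr1b7, Dock3, Cyb5r1, Stard5, Cox6a2, Trim66, Acot2, Ddit3, Cth and Stk32a.

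The largest falls included Dbh, the noradrenaline-synthesising enzyme dopamine beta-hydroxylase, at 11.41 RPKM in DMSO and 3.74 with SEW06315 (log2 ratio -1.49), Jup, the junction protein plakoglobin, at 19.78 and 7.18 (-1.40), the histone gene Hist1h4i at 5.46 and 1.67 (-1.46), Ccdc85b at 11.79 and 4.59 (-1.27), Fam132a at 5.67 and 1.40 (-1.70) and Dazl at 5.04 and 1.82 (-1.26). Jup, Hist1h4i, Ccdc85b and AC163329.3 were at their lowest of all 28 conditions. The other 4 were gene models with clone names, RP23-99B10.2 (-1.99), RP23-42I13.2 (-1.72), AC163329.3 (-1.61) and RP23-317N11.7 (-1.27).

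The cells carried the markers of sympathetic neuroblasts under both conditions, at somewhat lower levels with SEW06315. Of 18 markers, 14 were above 5 RPKM, among them Hand2 (247.51 and 183.46) and Tubb3 (395.99 and 285.15), while Nefl and Nefm were at or near 0 and Th was at 1.57 and 0.80. Their median log2 ratio was -0.45, which is 0.32 below that of all genes, 12 of the 14 lay below the median of all genes, and 1 passed 2-fold, Dbh. Chgb, a protein of secretory granules, was at 325.06 and 177.49 RPKM (-0.87) and Phox2a at 78.92 and 46.95 (-0.74). The 15 neuroblast transcription factors above 5 RPKM, which share members with the markers, had a median of -0.16 (-0.74 for Phox2a to 0.33 for Insm1). Of 13 markers of other cell types, none reached 5 RPKM and the highest value was 2.84. In bulk RNA, fewer cells in a given state and less RNA per cell cannot be told apart.

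Genes with a called microexon, cassette exon or intron passed 2-fold in expression about as often as all genes with measured events. Of 597 such genes above 5 RPKM, 10 passed 2-fold (1.68%), beside 103 of 7544 with any measured event (1.37%). Of the stress response genes, 1 of 103 cassette exons was called (0.971%, beside 0.875% of all) and 0 of 128 introns. The called event was a 48-nt exon of Ddit3, at 84.69, 81.57 and 82.32 PSI in DMSO and at 93.30 with SEW06315 (3638 reads), second of 34 libraries. Of the sterol genes, 1 of 96 cassette exons was called, included less (1.04%). Of the 10 genes with both, Ddit3, Angptl6, Arid5a, Cnga3, Cyb5r2, Lpin1 and Rdm1 had a called cassette exon and 3 had called introns. Among these 3, Prune2 was more than 2-fold higher (18.99 and 45.58 RPKM) with 2 introns retained more (DMSO means 9.30 and 10.07, treated 29.73 and 28.55). Maf1, a repressor of RNA polymerase III, was more than 2-fold lower (38.97 and 18.48 RPKM) with a 378-nt intron at 67.86, 67.74 and 54.55 PSI in DMSO and at 29.41 with SEW06315, the lowest of all libraries in which it passed. The exchange factor gene Rin1 was higher (3.0 and 11.77 RPKM) with 2 introns retained less (13.50 and 11.56 in DMSO, 2.19 and 0.00 treated).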

How the data were processed

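The deposited splicing values are percent spliced in (PSI), which the authors made with vast-tools on mm9 from poly(A) RNA-seq of 1 treated and 3 DMSO libraries. The deposited RPKM values are 1 merged value per condition. The authors' log2 fold changes, p-values and FDR from edgeR were not used, and no value column was without a sample or condition. The authors used Salmon (0.10.2 per the labels). Exons and splice sites had to pass the deposited coverage grades. Introns needed 15 reads or more, with a p over 0.05 in the deposited balance test. Calls used at least 10 PSI and a posterior above 0.95 (2000 beta draws per library); for genes, log2 ratios used a pseudocount of 0.5 RPKM, with counts above 2-fold and 5 RPKM. Python 3.11.15 and numpy 2.4.6 were used. The calling was tested on simulated reads drawn with no spread between DMSO libraries, so that test cannot measure calls that arise from such spread. Named events were the largest called ones with 3 DMSO libraries passing, a treated value outside their range and at least 20 reads in each library, 1 per gene. Named genes were the 10 largest rises and falls among coding genes, the extremes of each list and the regulators the study measured. Members and lists were chosen with earlier results of these data known. A few genes counted in the lists are not reported here by name.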

Additional observations from a re-analysis of the deposited data

How the results depend on the processing

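No paired analysis was possible because the treated group has 1 library. Numbers are given in the order higher then lower. With at least 15 PSI in place of 10, calls fell to 17 and 0 microexons, 90 and 58 cassette exons, 227 and 41 introns, 85 and 82 alternative 3 and 60 and 63 alternative 5 splice sites. A posterior above 0.99 left 213 and 28 introns, 134 and 128 alternative 3 and 105 and 102 alternative 5 splice sites; pooled DMSO draws left 293 and 37, 130 and 118, and 111 and 111. At least 30 reads gave 239 and 32 introns, of which 230 and 30 were among the 466 and 71. At these settings microexons included more numbered 25 to 34. Counting microexons up to 15 nt gave 23 and 0. Leaving out each DMSO library in turn gave 36 to 38 and 3 to 4 microexons (4 without DMSO C) and 103 to 120 introns retained less (120 without DMSO A, 112 without DMSO B). Leaving out 1 of 3 DMSO libraries cannot move a difference by more than their spread, so the 159 such comparisons of named events say nothing on that point. The calls in Mllt4 and Zdhhc20 fell under 10 PSI in 1 or more, and 4 differences of uncalled exons changed sign. Genes numbered 459 and 250 above 1 RPKM, 550 and 373 with no limit, 387 and 453 past 1.5-fold, and 107 and 35 when protein-coding only; with ratios centred on the median of all genes they numbered 226 and 60. At 1.5-fold and without centring, the lower genes thus outnumbered the higher ones. Of 234 values of named genes under other pseudocounts or centring, 24 moved and 5 changed sign, all when centred on the median of all genes (Ebp, Elovl5, Uqcrc2, Rps9 and Qk, none past 2-fold). Depth limits rarely covered events: 57481 cassette exons passed in the treated library and 56020 in DMSO C, against 61357 in DMSO A. The treatment has no replicate.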
